A study of Mus musculus with 18 samples.

Results

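The binding of CREB1 was compared with that of ATF1 on DNA that carried 5-hydroxymethylcytosine (5hmC), using 4 of the 18 protein binding microarrays of the series, 2 for CREB1 and 2 for ATF1. All members were chosen by their labels for protein and DNA, and no measured value entered that choice. The proteins were the mouse DNA-binding domains with flanking residues, fused to glutathione S-transferase, made in vitro with the PureExpress kit and detected with Alexa Fluor 647, so neither the full-length proteins nor their cellular partners were present. The printed probes were copied by primer extension with 5hmC in place of cytosine, and the new strand therefore carried 5hmC at every cytosine while the printed strand carried none. The same 2 proteins on DNA made with 5-methylcytosine (5mC) and on unmodified DNA, with 2 arrays each, entered as the comparison, and the JUND arrays of the series entered only one alternative fit. Nothing in the labels says that the 2 arrays of a group used separate protein preparations, so the p-values below measure only the spread between these arrays.

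CREB1 and ATF1 are basic leucine zipper (bZIP) factors of one family. Each binds DNA as a dimer whose basic regions lie in the major groove and each basic region reads its own side of the site, and both are known for the cyclic AMP response element (CRE), which holds a CpG at its centre. C/EBP proteins are bZIP factors that read the half-site GCAA, and DNA that joins a CRE half-site to a C/EBP half-site can be written with or without a CpG. 5hmC is formed when TET enzymes oxidise 5mC, and it places a bulkier polar group than 5mC in the major groove. The question the comparison addresses is whether 2 close relatives choose the same sequences when one strand is hydroxymethylated.

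The values were the authors' z-scores of 8-base sequences (8-mers) on each array. They followed the median signal of the probes with the 8-mer on the new strand (Spearman's rho of 0.966 and 0.969 on the CREB1 arrays and of 0.962 and 0.962 on the ATF1 arrays, across 8-mers) far more than that of the probes with it on the printed strand (0.168 to 0.307). Of 65530 deposited 8-mers, 64454 were carried by 10 or more of the 40330 probes on the new strand and were kept, with a median of 17 probes each. Every 8-mer is written as it stands on the new strand, 5′ to 3′, and a capital C marks each 5hmC. The sequences below are shown because they mark the shared optimum, the sites that define each family and the sequences on which the proteins parted.
composite site, ranked first by both proteins: tgatgCaa
CRE and C/EBP chimera: tgaCgCaa
CRE palindrome: tgaCgtCa
CRE half-site joined to a PAR bZIP half-site: tgaCgtaa
C/EBP half-site sequence higher with CREB1: aCgCaata
the same half-site with another flank: taCgCaat
the same half-site with a cytosine at the end: aCgCaatC
CRE palindrome core with a changed first base: CgaCgtCa
composite core shifted by a base: gatgCaat
A and T rich sequence lower with CREB1: tattataC

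The arrays differed in range and in agreement, and this bears on each result below. The median probe signal was 1249 and 1298.5 units on the CREB1 arrays and 1472.5 and 1501 units on the ATF1 arrays, with at most 2 saturated probes on any of the 4. The z-score that 0.1% of the kept 8-mers exceed was 15.1 and 21.96 on the CREB1 arrays, against 6.97 and 6.20 on the ATF1 arrays. Over all kept 8-mers the Spearman correlation was 0.736 between the 2 CREB1 arrays and 0.531 between the 2 ATF1 arrays, and it was 0.523 to 0.619 between arrays of different proteins. The correlation between the ATF1 arrays thus lay within the range of those between proteins, while among the 100 highest 8-mers the ATF1 arrays shared 72 and arrays of different proteins 58 to 69. The number of arrays limits the precision, and 2 against 2 cannot give an exact permutation p below 0.333 for a single value.

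Both proteins put the same CpG-free sequence first. The composite site tgatgCaa, a CRE-like half-site joined to GCAA, had z-scores of 113 and 164 on the CREB1 arrays and of 42.9 and 40.5 on the ATF1 arrays. It ranked 1 of 64454 on all 4 arrays, although its z-scores did not overlap between the proteins. The chimera tgaCgCaa, which differs from it by the substitution T4C (positions counted from 1 at the 5′ end), had z-scores of 59.2 and 67.6 on the CREB1 arrays and of 37.7 and 27.3 on the ATF1 arrays. Its ranks were 2 and 5 with CREB1 and 2 and 2 with ATF1. The next 8-mers of the shared group overlapped the composite or the chimera, or held the CRE half-site TGACG. The 8-mer gatgaCgC ranked 6 and 4 with CREB1 and 7 and 5 with ATF1, and atgaCgCa ranked 5 and 7 with CREB1 and 4 and 4 with ATF1. Neither differed in rank beyond the spread (limma on rank normal scores, Benjamini-Hochberg adjusted p = 0.855 and 0.697).

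A z-score of 4 or more is called bound here, a line that describes and does not test. CREB1 bound 1056 and 1112 8-mers on its arrays, and ATF1 bound 305 and 259. On both arrays of a protein, 688 8-mers were bound by CREB1 and 179 by ATF1. The 173 8-mers bound on all 4 arrays made up 25.1% of the CREB1 set and 96.6% of the ATF1 set. ATF1 therefore bound few sequences at this line that CREB1 did not, and the smaller range of the ATF1 z-scores moved with this count. Its part in the count was not tested. The 6 exceptions, named after their values were seen, were ttgtgatg, tgaCgtgC, tgtaatat, gCgatgat, tattatgt and gatgtata. All 6 missed the line on 1 or both CREB1 arrays, with CREB1 means of 2.91 to 6.19 and ATF1 means of 4.10 to 4.86. Among the 100 highest 8-mers of each array, 79 were shared by the CREB1 arrays and 45 by all 4.

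**Figure D1:**
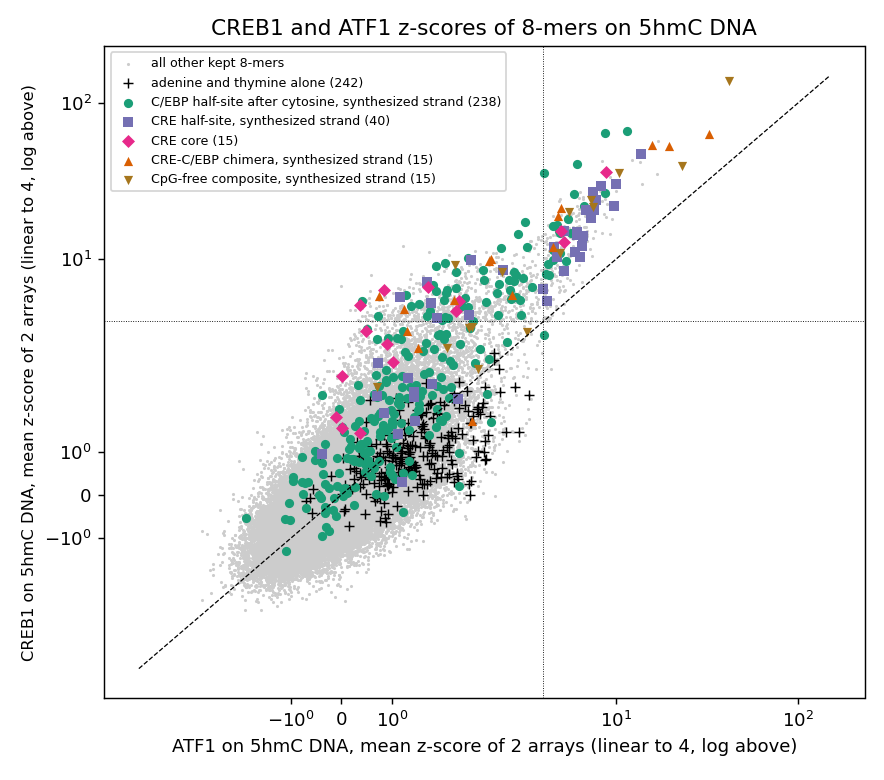
Mean z-score of each of the 64454 kept 8-mers over the 2 CREB1 arrays (vertical axis) and the 2 ATF1 arrays (horizontal axis) on 5hmC DNA, on axes that are linear up to 4 and logarithmic above; the dashed line marks equal z-scores and the dotted lines mark 4. The composite and chimera sites lie at the upper right, a group of C/EBP half-site 8-mers after cytosine lies above the line at CREB1 means of 35.9 to 66.6, and 8-mers of A and T alone lie mostly below it.

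To set aside the unequal range of the arrays, each z-score was ranked within its array and the rank was turned into a normal score, which is 0 for the middle 8-mer. CREB1 minus ATF1 was then tested with limma over 12 arrays. Of 64454 8-mers, 374 (0.58%) differed at an adjusted p under 0.05, 293 of them higher with CREB1 (0.455%) and 81 lower (0.126%). At an unadjusted p under 0.05 there were 9098. The count rests on the arrays used: it was 98 without CREB1 replicate 1, 20 without CREB1 replicate 2, 2340 without ATF1 replicate 1 and 946 without ATF1 replicate 2. The ATF1 arrays had a median SD of 0.438 normal scores, against 0.316 on the CREB1 arrays and 0.252 to 0.343 in the other groups. With 1 weight per group for that difference, 54 8-mers passed (0.0838%), 52 higher (0.0807%) and 2 lower (0.0031%), and with the 4 arrays alone none did (limma, 5474 at an unadjusted p under 0.05).

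The 293 8-mers that were higher with CREB1 were rich in CpG. A CpG stood in 232 of them (79.2%), against 38.2% of all kept 8-mers, and the CRE centre ACGT stood in 78 (26.6%), against 1.98% of all. Under the group weights 49 of the 52 higher 8-mers held a CpG and 22 held ACGT. CREB1 bound 66 of the 293 by their mean z-score. ATF1 bound 3, namely taCgCaat, aCgCaata and aCgCaatC. The remaining higher 8-mers were below a mean z-score of 4 with both proteins, and the median z-scores of the whole set were 2.30 and 2.80 on the CREB1 arrays and 0.143 and -0.0468 on the ATF1 arrays.

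Around the CRE palindrome the full site did not pass the rank test, and 4 of the 15 8-mers with a run of at least 7 of its bases did. The palindrome tgaCgtCa had z-scores of 27.5 and 44.9 on the CREB1 arrays and of 8.94 and 8.77 on the ATF1 arrays. Its ranks were 15 and 15 with CREB1 and 25 and 27 with ATF1, a difference of 0.15 ± 0.12 normal scores (SE, limma adjusted p = 0.596). These 15 8-mers had a median difference of 0.94 normal scores, against 0.01 over all kept 8-mers. The 4 that passed were all higher with CREB1 (26.7%, against 0.455% of all kept 8-mers), and 3 of the list passed with group weights. CREB1 bound 7 and 9 of the 15 and ATF1 bound 3 and 3. The smallest adjusted p of all 8-mers was that of CgaCgtCa, the palindrome with T1C. Its z-scores were 4.46 and 5.74 on the CREB1 arrays and 0.553 and 0.183 on the ATF1 arrays. It ranked 817 and 553 with CREB1 and 19219 and 27716 with ATF1, so that ATF1 placed it near the middle of its arrays. The difference was 1.96 ± 0.19 normal scores (SE, limma adjusted p = 1.47e-05, and 6.58e-05 with group weights). The 8-mer gaCgtCaC ranked 817 and 320 with CREB1 and 11570 and 16098 with ATF1 (1.61 ± 0.19 normal scores, SE, adjusted p = 0.000173). The variant tgaCgtCt, which is A8T, ranked 932 and 1662 with CREB1 and 23942 and 16987 with ATF1. The ranks of these 3 sequences did not overlap between the proteins. All 3 had passed the test on the same values, so this adds no support. Over all kept 8-mers 19.4% lay higher with CREB1 in that way.

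Incomplete CRE sites with TGACGT on the hydroxymethylated strand were high with both proteins. The 40 such 8-mers had a median rank of 397 and 251.5 on the CREB1 arrays and of 238.5 and 370 on the ATF1 arrays. The median difference was 0.04 normal scores, with 3 higher (7.5%, against 0.455% of all kept 8-mers) and none lower. With group weights 1 of the 3 stayed higher. By scaled value, defined below, the median difference was -7.92, against 0.53 over all kept 8-mers. At the 0.126% lower over all kept 8-mers, lists of this size would seldom hold a lower call. Nothing is read from that absence here or in the lists below. CREB1 bound 25 and 28 of the 40, and ATF1 bound 21 and 19. The top member was tgaCgtaa, with z-scores of 38.1 and 56.1 on the CREB1 arrays and of 15.7 and 11.6 on the ATF1 arrays and ranks of 8 and 9 with CREB1 and 8 and 11 with ATF1 (adjusted p = 0.943). When the half-site was read on the printed strand, so that the new strand held ACGTCA, each CREB1 array bound 1 of 40 and the ATF1 arrays bound none. The reverse of tgaCgtaa, ttaCgtCa, had z-scores of 2.43 and 2.05 on the CREB1 arrays and of 1.35 and 0.814 on the ATF1 arrays, far below those of its partner with either protein. The probes of that reverse sequence carry the same base pairs with the 5hmC on the other strand.

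Other sites with ACGT at the centre were placed higher by CREB1 in part. PAR bZIP factors bind a palindrome of the half-site TTAC, and of 15 8-mers with that core CREB1 bound 7 and 12 and ATF1 bound 4 and 2. The median difference of these 15 was 0.77 normal scores. Of them 5 were higher with CREB1 (33.3%, against 0.455% of all kept 8-mers), 2 of these also with group weights, and none was lower. The full PAR palindrome ttaCgtaa was not among them, at ranks of 71 and 105 with CREB1 and 59 and 57 with ATF1 (adjusted p = 0.744). The 8-mer taCgtaaa, in contrast, ranked 621 and 850 with CREB1 and 11059 and 37680 with ATF1 (1.91 normal scores, adjusted p = 0.00363). E-boxes, the sites of helix-loop-helix factors, share the central CpG. CREB1 bound 5 and 14 of 48 E-box 8-mers and ATF1 bound 1 and none. By rank 5 of the 48 were higher with CREB1 (10.4%, against 0.455% of all kept 8-mers), none of them with group weights, and none was lower. The highest of those 5 by CREB1 z-score was CaCgtgCt, with 4.31 and 4.40 on the CREB1 arrays and 1.14 and 0.122 on the ATF1 arrays. Of 1119 further 8-mers with ACGT, 59 were higher with CREB1 (5.27%) and none lower. With group weights 15 were higher, against 0.0807% of all kept 8-mers. Over all kept 8-mers 0.126% were lower, so nothing is read from the absence of lower calls.

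**Figure D2:**
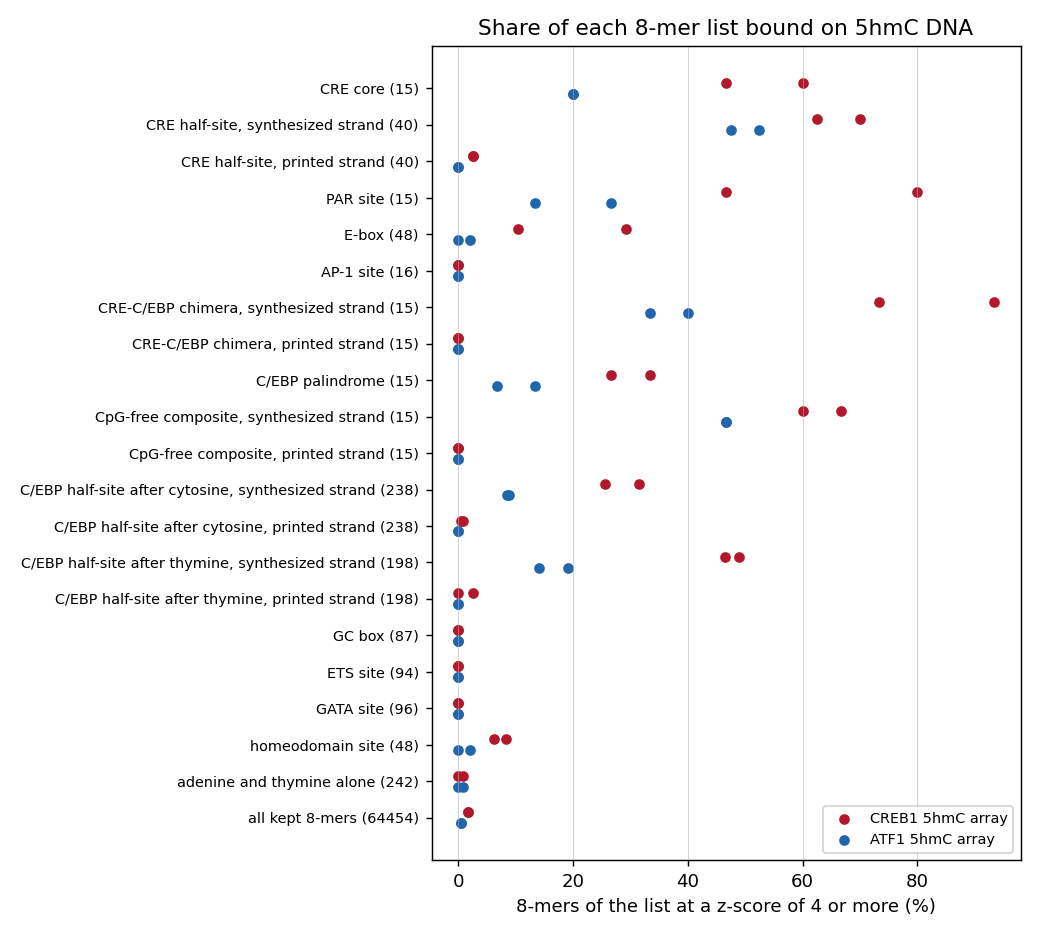
Percent of the 8-mers of each list with a z-score of 4 or more on 5hmC DNA, one point per array, CREB1 in red and ATF1 in blue; the number of 8-mers in a list stands in parentheses. In each list drawn the mean of the CREB1 arrays lies at or above that of the ATF1 arrays, with 53.3% against 20% for the CRE core, and lists written on the printed strand stay near 0 with both proteins.

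The C/EBP half-site after cytosine, CGCAA on the hydroxymethylated strand, held the strongest sequences on which the proteins differed. Of 238 such 8-mers outside the chimera and the C/EBP palindrome, CREB1 bound 61 and 75 and ATF1 bound 21 and 20. In rank 10 were higher with CREB1 (4.2%, against 0.455% of all kept 8-mers) and none lower, and the median difference was 0.36 normal scores. With group weights 1 of the 10 stayed higher. By scaled value, defined below, the list's median difference had the opposite direction. It was -2.19, against 0.53 over all kept 8-mers, so CREB1 was not favoured on both measures across the list. The 8-mer aCgCaata had z-scores of 54.9 and 74.2 on the CREB1 arrays and of 8.25 and 9.14 on the ATF1 arrays. It ranked 3 and 3 with CREB1 and 32 and 21 with ATF1, a difference of 0.60 ± 0.11 normal scores (SE, adjusted p = 0.0106). The 8-mer taCgCaat had z-scores of 53.3 and 79.9 on the CREB1 arrays and of 13.7 and 9.47 on the ATF1 arrays. It ranked 4 and 2 with CREB1 and 10 and 19 with ATF1 (0.44 ± 0.10 normal scores, SE, adjusted p = 0.0441). The 8-mer aCgCaatC stood lowest of the 3 in the order of ATF1, with z-scores of 28.7 and 43.2 on the CREB1 arrays and of 4.20 and 3.87 on the ATF1 arrays. It ranked 14 and 16 with CREB1 and 250 and 293 with ATF1 (0.87 ± 0.13 normal scores, SE, adjusted p = 0.00363). With group weights this last call held (adjusted p = 0.0202), while those of aCgCaata and taCgCaat did not (0.0555 and 0.168).

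These 3 sequences share the 7 bases ACGCAAT, and the other members of that family, followed up after the values of the first were seen, did not all move with them. The 8 members stood on 72 probes in all and overlap in sequence, so they are not independent. CaCgCaat ranked 11 and 12 with CREB1 and 148 and 42 with ATF1 (adjusted p = 0.0539). gaCgCaat ranked 43 and 52 with CREB1 and 86 and 328 with ATF1 (adjusted p = 0.219). aCgCaatg ranked 147 and 110 with CREB1 and 96 and 42 with ATF1, which is the opposite direction (adjusted p = 0.545). The members aaCgCaat and aCgCaatt had adjusted p-values of 0.965 and 0.461. A closely related site without the last base, CtaCgCaa, ranked 44 and 47 with CREB1 and 31 and 143 with ATF1 (adjusted p = 0.729).

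Among chimera sites, which join a CRE half-site to GCAA and hold a CpG, CREB1 bound 11 and 14 of 15 and ATF1 bound 6 and 5 when the site was on the new strand. By rank 2 of the 15 were higher with CREB1 (13.3%, against 0.455% of all kept 8-mers), 1 of them also with group weights, and none was lower. These were CtgaCgCa, at ranks of 684 and 424 with CREB1 and 29919 and 6471 with ATF1, and gaCgCaag, at ranks of 861 and 643 with CREB1 and 3913 and 16479 with ATF1. The CpG-free composite sites, TGATGCA or GATGCAA, held no call among 15. At the share over all kept 8-mers so short a list would seldom hold a call, and nothing is read from this. CREB1 bound 9 and 10 of the composite 8-mers and ATF1 bound 7 and 7, and the median difference was 0.05 normal scores. By scaled value it was -5.20, against 0.53 over all kept 8-mers. The member gatgCaat ranked better with ATF1, with z-scores of 29.7 and 49.7 on the CREB1 arrays and of 26.8 and 19.4 on the ATF1 arrays. It ranked 12 and 13 with CREB1 and 3 and 3 with ATF1, and although these ranks did not overlap the difference of -0.39 ± 0.17 normal scores (SE) missed the threshold (adjusted p = 0.278). Neither protein bound a chimera or composite 8-mer that was written on the printed strand.

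The C/EBP half-site after thymine, TGCAA, lies in the composite site and also stands alone. Of 198 further 8-mers with it on the new strand, CREB1 bound 97 and 92 and ATF1 bound 38 and 28, and 2 were higher by rank with CREB1 and none lower. That share of 1.01% stands beside 0.455% over all kept 8-mers, and nothing is read from it. The 8-mer ttatgCaa, the composite site with G2T, had z-scores of 24.6 and 59.9 on the CREB1 arrays and of 7.81 and 8.96 on the ATF1 arrays. Its ranks were 19 and 8 with CREB1 and 41 and 24 with ATF1 (adjusted p = 0.50). When TTGCAA put the half-site on both strands, CREB1 bound 30 and 16 of 48 and ATF1 bound 5 and 1. By rank 2 of these 48 were higher with CREB1 (4.17%, against 0.455% of all kept 8-mers), neither of them with group weights, and none was lower. The half-site after A or G gave a case where the CREB1 arrays themselves disagreed. Of 510 such 8-mers 74 were bound on CREB1 replicate 1 and 14 on replicate 2, against 2 and 3 on the ATF1 arrays. The C/EBP palindrome ttgCgCaa ranked 329 and 227 with CREB1 and 362 and 174 with ATF1 (adjusted p = 0.966). In its list 1 of the 15 8-mers was higher with CREB1 (6.67%, against 0.455% of all kept 8-mers), and none with group weights.

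Sites of other factor families served as the background of the lists. No GC-box, ETS or GATA 8-mer was bound on any of the 4 arrays, and none passed the rank test in either direction. Lists of 87 to 96 8-mers would hold few calls at the shares over all kept 8-mers, so nothing is read from that absence. Homeodomain 8-mers, another such list, were bound in 4 and 3 of 48 on the CREB1 arrays and in 0 and 1 on the ATF1 arrays. AP-1 sites, the targets of JUN and FOS proteins, were bound on none of the 4 arrays. Their median difference of 0.61 normal scores over 16 8-mers came with no call. So short a list would seldom hold a call at the shares over all kept 8-mers, and nothing is read from that. The AP-1 8-mer tgagtCat had z-scores of 3.91 and 0.373 on the CREB1 arrays and of 2.66 and 1.00 on the ATF1 arrays, so that replicates differed more than proteins.

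The 81 8-mers that were lower with CREB1 were bound by neither protein. None reached a z-score of 4 on any array, and their median z-scores were -0.902 and -0.855 on the CREB1 arrays and 1.24 and 1.498 on the ATF1 arrays. A CpG stood in 17 of the 81, against 38.2% of all kept 8-mers. None held ACGT, which stood in 1.98% of all kept 8-mers. A list of this size would hold few at that share, and nothing is read from that absence. Under the group weights only tattataC and CggagaaC stayed lower. The first had z-scores of 0.610 and -0.659 on the CREB1 arrays and of 2.77 and 3.31 on the ATF1 arrays. Its ranks were 18783 and 49684 with CREB1 and 1037 and 491 with ATF1, a difference of -2.38 ± 0.42 normal scores (SE, adjusted p = 0.00912). Of the 242 8-mers of A and T alone that no other list held, none passed the rank test. Over all kept 8-mers 0.58% did, and nothing is read from that absence. Among the 242, 11 lay above and 112 below ATF1 on both CREB1 arrays without overlap. Over all 8-mers 19.4% lay above and 19.8% below in that way. The median rank of these A and T 8-mers was 13474 and 16197 on the CREB1 arrays and 6861.5 and 7037.5 on the ATF1 arrays.

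**Figure D3:**
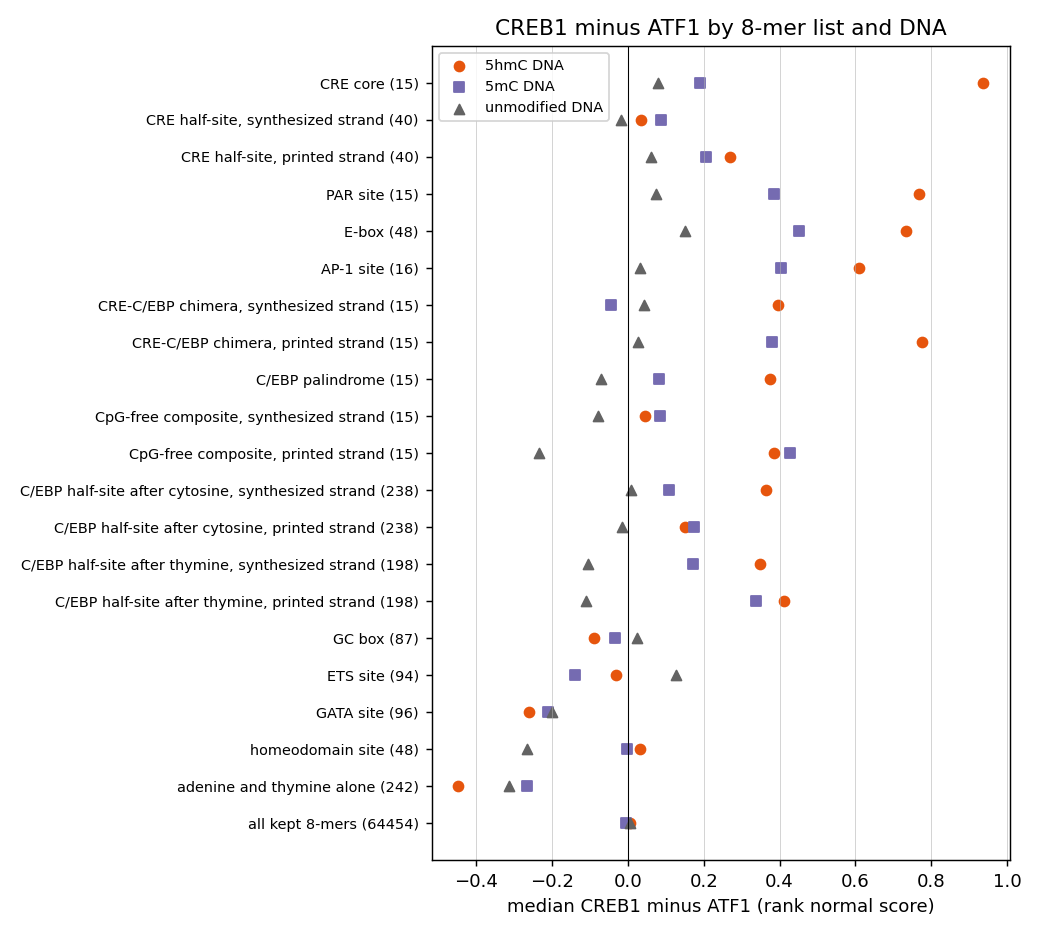
Median over each list of CREB1 minus ATF1 in rank normal score (horizontal axis; the mean of 2 arrays for each protein), on 5hmC DNA (circles), 5mC DNA (squares) and unmodified DNA (triangles). On 5hmC DNA the CRE core list stands at 0.94 and the list of A and T alone at -0.45, while all kept 8-mers stand near 0 on each DNA.

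Base composition followed the same order as the lists. The 8-mers without cytosine on the new strand had a median difference of -0.19 normal scores, and those with 4 cytosines had 0.11. By CpG, the median was -0.08 with none, 0.11 with 1, 0.33 with 2 and 0.59 with 3. Most 8-mers in every class were unbound, so these medians describe weak signal rather than sites. The number of cytosines on the new strand also moves with the G and C content of the 8-mer. The part of 5hmC and of base composition in these medians was not tested.

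**Figure D4:**
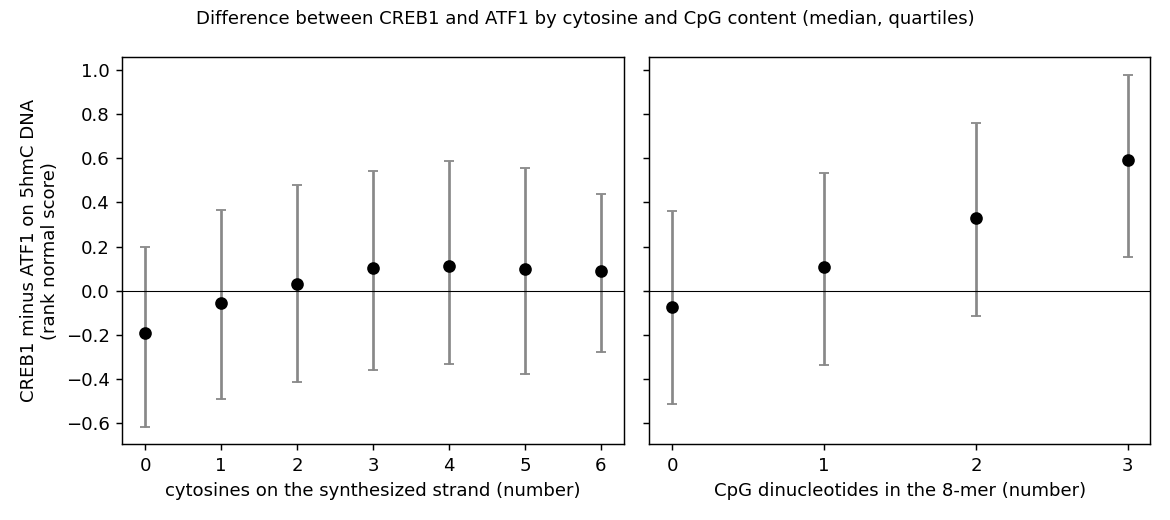
CREB1 minus ATF1 on 5hmC DNA in rank normal score (vertical axis; median as a point, quartiles as bars) by the number of cytosines on the new strand (left) and of CpG dinucleotides (right) in the 8-mer. The median runs between -0.19 and 0.11 over cytosine number and between -0.08 and 0.59 over CpG number, with wide quartiles throughout; the single 8-mer with 4 CpG is not drawn.

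Single-base variants of the 3 main sites were compared at the z-score line of 4 and by rank. ATF1 had the smaller range of z-scores, and the part of that range in the bound counts below was not tested. Of the 24 variants of the composite tgatgCaa, CREB1 bound 10 on both arrays and ATF1 bound 4. Of those of the chimera tgaCgCaa, CREB1 bound 12 and ATF1 bound 7, and of those of the palindrome tgaCgtCa, CREB1 bound 7 and ATF1 bound 3. By rank 1 of the 24 chimera variants and 4 of the 24 palindrome variants were higher with CREB1, and no variant of any of the 3 sites was lower. The shares over all kept 8-mers were 0.455% higher and 0.126% lower. The best substitution by mean z-score was the same for both proteins at 5 of 8 positions of the composite, 7 of 8 of the chimera and 6 of 8 of the palindrome. In the composite, T4C gave the highest mean z-score with each protein (63.4 with CREB1, 32.5 with ATF1). G2T came next with each (42.3 with CREB1, 8.39 with ATF1), and T1C followed (21.7 with CREB1, 7.50 with ATF1). No variant at position 5 of the composite or the chimera was bound on both arrays by either protein. In the palindrome the best substitution was C7A for both (47.1 with CREB1, 13.7 with ATF1). A variant of the palindrome at position 5, G5A, was bound by CREB1 alone, with z-scores of 6.56 and 6.52 on the CREB1 arrays and of 0.948 and 1.31 on the ATF1 arrays, and it did not pass the rank test (adjusted p = 0.0531).

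On the other DNA the proteins were set side by side in the same way. The median difference over the CRE core list was 0.94 normal scores on 5hmC DNA, against 0.19 on 5mC DNA and 0.08 on unmodified DNA. The levels also differed between DNA. The list's median score on unmodified DNA was 2.99 with CREB1 and 3.12 with ATF1. On 5mC DNA it was 2.05 with CREB1 and 1.75 with ATF1, and on 5hmC DNA 2.15 and 0.80. The half-site after cytosine on the new strand had a median difference of 0.36 on 5hmC DNA. That difference was 0.11 on 5mC DNA and 0.01 on unmodified DNA. Other lists also differed between the proteins on the other DNA. The 8-mers of A and T alone had a median of -0.45 on 5hmC DNA, against -0.27 on 5mC DNA and -0.31 on unmodified DNA, and the E-box list had 0.73 on 5hmC DNA, against 0.45 on 5mC DNA and 0.15 on unmodified DNA. The change of a list's median between DNA was not tested. A test of the change in the difference found 1 8-mer of 64454 (0.00155%) against unmodified DNA, where 3845 had an unadjusted p under 0.05, and 1 (0.00155%) against 5mC DNA, where 3877 did (limma on rank normal scores). The contrast with unmodified DNA was passed by CgaCgtCa. Its z-scores averaged 5.10 ± 0.91 with CREB1 and 0.368 ± 0.26 with ATF1 on 5hmC DNA, 15.3 ± 6.36 with CREB1 and 5.72 ± 2.17 with ATF1 on 5mC DNA, and 93.6 ± 2.80 with CREB1 and 42.5 ± 6.43 with ATF1 on unmodified DNA (SD, n = 2 arrays each). On unmodified DNA both proteins ranked it among their first 61, and on 5hmC DNA CREB1 kept it above a z-score of 4 while ATF1 did not. The change in the difference was 1.88 ± 0.27 normal scores (SE, adjusted p = 0.0208). The contrast with 5mC DNA was passed by CaaCgCgt, which ranked 1085 and 607 with CREB1 and 27461 and 28303 with ATF1 on 5hmC DNA. On 5mC DNA it ranked 941 and 672 with CREB1 and 475 and 367 with ATF1. Its change in the difference was 2.31 ± 0.35 normal scores (SE, adjusted p = 0.0344). Both calls were lost without either CREB1 array, with all 18 arrays and with no trend. No 8-mer passed against unmodified DNA with values recomputed from the probes, and none against 5mC DNA with a minimum of 1 probe or a replicate block. In the fits without a call 2180 to 4111 8-mers had an unadjusted p under 0.05 against unmodified DNA and 2352 to 4012 against 5mC DNA (limma). Without ATF1 replicate 1 the counts were 170 against unmodified DNA and 297 against 5mC DNA, and without ATF1 replicate 2 they were 97 and 64.

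The ACGCAAT sequences were also high on 5mC DNA, with both proteins. The 8-mer aCgCaata ranked 3 and 3 with CREB1 and 32 and 21 with ATF1 on 5hmC DNA, against 2 and 3 with CREB1 and 5 and 5 with ATF1 on 5mC DNA. On unmodified DNA it ranked 681 and 610 with CREB1 and 1599 and 1039 with ATF1. The change in its difference did not pass by rank against 5mC DNA (0.39 normal scores, adjusted p = 0.747) or against unmodified DNA (0.32, adjusted p = 0.834). The composite tgatgCaa, first on all 5hmC arrays, ranked 10 and 10 with CREB1 and 16 and 11 with ATF1 on 5mC DNA, and 948 and 805 with CREB1 and 1465 and 1262 with ATF1 on unmodified DNA.

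Scaled values, which divide each z-score by the value that 0.1% of the kept 8-mers of its array exceed and multiply by 100, gave the size of the difference at the top. The composite tgatgCaa stood at 748 with CREB1 and 634 with ATF1, a direction that turned with the inverse hyperbolic sine of the z-score and on log2 probe signal, where it passed as lower with CREB1 (limma adjusted p = 0.0312 and 0.0277). The chimera tgaCgCaa stood at 350 with CREB1 and 491 with ATF1. The largest differences were 218 ± 29.2 for aCgCaata and 184 ± 16.8 for taCgCaat (SE, limma adjusted p = 0.00236 and 0.00187), both higher with CREB1. The most negative were -141 ± 37.7 for tgaCgCaa and -137 ± 22.3 for gatgCaat (SE, adjusted p = 0.0268 and 0.00407). The direction of the last 2 turned to higher with CREB1, with no call, when z-scores were left unscaled or scaled by the 99th percentile. In this fit 14199 8-mers (22%) passed, 7457 higher (11.6%) and 6742 lower (10.5%). That count is not used as a result, because the ATF1 arrays had a median SD of 6.84 scaled units, against 2.10 on the CREB1 arrays and 0.448 to 2.44 in the other groups that share the estimate. With 1 weight per group, or with the 4 arrays alone, none passed (limma, 7551 and 8519 at an unadjusted p under 0.05). By scaled value the change in the difference against unmodified DNA was passed by 0 8-mers (0%, limma, 12088 at an unadjusted p under 0.05) and that against 5mC DNA by 284 (0.441%), 123 higher (0.191%) and 161 lower (0.25%), with the same limit.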

How the data were processed

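The deposited z-score table gives 1 score per 8-mer and array. Not given in the sources used here are the way the authors made these scores, the scanner and the image software. Per the file headers, the deposited probe files hold the median intensity of each spot and of its background, on a linear scale and not normalized. Groups and replicate numbers come from the labels and the matching column names. The new strand is the reverse complement of the 35 bases of each printed probe, and 1076 8-mers on fewer than 10 probes were left out. Missing z-scores (6 in the table) touched no kept 8-mer of the 12 arrays fitted.

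The 8-mers, lists and key sequences were chosen with earlier results of these data known. The named 8-mers are 20 key sequences, the 10 largest differences each way by scaled value among those that passed without overlap between the proteins, the 10 highest of each protein, the 5 largest each way of each interaction and the single-base variants of 3 sites. The 10 smallest p-values each way by rank, the ACGCAAT family, the called members of lists and the 6 8-mers bound by ATF1 without CREB1 were added after values were seen. Each 8-mer entered 1 of 26 lists, or the rest.

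Differences were fitted with limma 3.58.1 in R 4.3.3 (1 mean per group over 12 arrays of 6 groups, eBayes with trend) on rank normal scores and on scaled values, as two-sided tests at 0.05 after Benjamini-Hochberg adjustment across the 64454 kept 8-mers. Both fits of the difference were planned, with the scaled fit listed first. The rank fit was put first, and the rank test of the change between DNA was added, after the values were seen, because the spread of the ATF1 arrays is unequal to that of the other groups on the scaled values. The fit of scaled values was run on simulated data with a spread shared by all groups, and the rank fit was not. That run therefore says nothing about the unequal spread of the ATF1 arrays. Plots were drawn with matplotlib 3.10.9, and the other tables were made in Python 3.11.15 (scipy 1.17.1, pandas 2.3.3, numpy 2.4.6). Replicate numbers did not pair the arrays: the differences between replicates correlated at -0.0872 by normal score and -0.0801 by scaled value between the 2 proteins on 5hmC DNA, across 8-mers, and nothing in the labels says what a number shares. Alternatives covered the arrays fitted, the probe minimum, the scaling, group weights, median 8-mer signals recomputed from the probes and each array left out.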

Additional observations from a re-analysis of the deposited data

Results flagged for a closer look

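Each 8-mer below stood out because CREB1 minus ATF1 on 5hmC DNA differed from the same difference on another DNA by a direct test of that change (limma, Benjamini-Hochberg adjusted p under 0.05). By rank normal score, CgaCgtCa changed by 1.879 against unmodified DNA (adjusted p = 0.0208). CaaCgCgt changed by 2.307 against 5mC DNA (adjusted p = 0.0344). By scaled value against 5mC DNA, where the CREB1 and ATF1 arrays of the groups had unequal spread, 284 8-mers passed and none did with group weights. The 5 largest positive changes among them were those of taCgCaat (193.3), CaaCgCgt (46.62), CaaCaCgC (45.16), CaCgaCCg (43.51) and gaCttaCa (42.13). The first of these had mean scaled values of 359 with CREB1 and 175 with ATF1 on 5hmC DNA, and of 321 with CREB1 and 330.3 with ATF1 on 5mC DNA. The 5 most negative were those of Cgtgtaat (-59.55), aCggtaat (-48.71), gatgtata (-44.35), Cgatgata (-42.56) and tataaCtg (-42.09). Of these 10, CaaCgCgt also passed by rank, and for the other 9 the adjusted p by rank against 5mC DNA was between 0.347 and 0.839.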

How the results depend on the processing

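The rank count of 374 stayed within 1.5 times of that value with a replicate block (377), with other probe minimums and with signals recomputed from the probes. It was 0 with the 4 arrays alone, 0 with all 18 arrays (limma, 6315 at an unadjusted p under 0.05), 0 with no trend (8708) and 54 with group weights, and leaving out 1 array gave 20 to 2340. The scaled count of 14199 was 12856 with a replicate block. It was 0 with the 4 arrays, 2 with all 18, 5 with unscaled z-scores (4 higher, 1 lower), 3620 with the 99th percentile, 277 with quantile normalization (87 higher, 190 lower), 1022 with the inverse hyperbolic sine, 2026 recomputed on log2 signal, 719 scaled by shared bound 8-mers, 0 with group weights and 53 with these and quantile normalization (14 higher, 39 lower), and leaving out 1 array gave 4302 to 35918. The change against unmodified DNA by scaled value counted 0 8-mers (12088 at an unadjusted p under 0.05) and 0 with a replicate block, but 468 with no trend, 18 with unscaled z-scores, 1 with quantile normalization, 2 with this and group weights, and 0 to 25819 with 1 array left out. That against 5mC DNA counted 284, and 507 with no trend, 495 recomputed on linear signal, 9 with quantile normalization and 5 with this and group weights. It was 0 with all 18 arrays, a replicate block, a minimum of 1 probe, unscaled z-scores, the 99th percentile, the 10 highest, the inverse hyperbolic sine, log2 signal, no saturated probes, shared bound 8-mers and group weights, and 0 to 26505 with 1 array left out. By rank, the change counted 1 8-mer against unmodified DNA and 1 against 5mC DNA. With a replicate block these were 1 and 0, with a minimum of 1 probe 1 and 0, with 15 probes 2 and 2, with recomputed values 0 and 2, with group weights 1 and 1, and with all 18 arrays or no trend 0 and 0. With 1 array left out they were 0 to 170 and 0 to 297. Of the values of single 8-mers by rank under other settings, 737 kept their side of the threshold, 117 lost it and 9 gained it, and none changed sign at a call. By scaled value 1010 kept it, 232 lost it, 40 gained it and 15 changed sign. Without scaling these were tgaCgCaa (30.9), gatgCaat (16.6), CtatgaCg (18.5), tatgatga (5.20), Cgtgtaat (0.579), gtatgatg (3.09), gaatgaCg (4.35) and gtgaCgCt (16.2). With the 99th percentile they were tgaCgCaa (202), gatgCaat (37.5), CtatgaCg (149) and gtgaCgCt (142). The composite tgatgCaa changed sign with the inverse hyperbolic sine (-15.2) and on log2 signal (-48.0), both past the threshold as lower with CREB1 (adjusted p = 0.0312 and 0.0277), and tgaCgCaa without saturated probes (23.2). The causes were not tested. Group weights, scaling by shared bound 8-mers and the rank values of single 8-mers were chosen after seeing the data.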

Other observations

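The homeodomain core TAATTA was listed as a site of another factor family. CREB1 bound 4 and 3 of its 48 8-mers and ATF1 bound 0 and 1. Its palindrome ttaattaa had z-scores of 2.42 and 0.0569 on the CREB1 arrays and of 0.615 and 0.567 on the ATF1 arrays. No homeodomain 8-mer passed the rank test, and beside the 0.58% over all kept 8-mers nothing is read from that. Of 841 8-mers with the CRE piece TGAC on the new strand and no CpG, CREB1 bound 76 and 110 and ATF1 bound 26 and 16, and 8 were higher (0.951%) and 1 lower (0.119%) with CREB1. Over all kept 8-mers 0.455% were higher and 0.126% lower, and nothing is read from these counts. With the same bases on the printed strand, CREB1 bound 7 and 9 of 847 and ATF1 bound none. One 8-mer among the 10 largest scaled differences was below the array median with both proteins, aggCCagC, with z-scores of -0.915 and -0.753 on the CREB1 arrays and of -2.28 and -3.22 on the ATF1 arrays.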
